A study of Mus musculus with 8 samples.

Results

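Sterol and fatty acid synthesis was followed through 31 genes that encode the enzymes and regulators of cholesterol and long-chain fatty acid production. Members were the rows of the RPKM table (reads per kilobase of transcript per 1e6 reads) with these gene symbols. All 31 were found among the 23952 symbols, and the 5 members with several transcripts are represented by the most abundant of them, by mean RPKM. Of the 31, 29 reached 1 RPKM in at least 2 libraries and were tested. Hmgcs1, which encodes the synthase before the committed step of the mevalonate pathway, was listed at 0 in all 8 libraries. Idi1, an isomerase of isoprenoid building blocks, stayed between 0 and 0.663 RPKM. A 0 in every library can be a failed estimate, so nothing is read from the values of these genes.

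The 8 libraries came from Lewis lung carcinomas, tumors grown under the skin of mice from a mouse lung carcinoma cell line, and formed 4 groups of 2. The injected carcinoma cells had been transfected with dTomato, sorted for its red fluorescence and kept under G418 selection. The hosts were transgenic Col1a1-GFP mice, in which a green fluorescent protein marks cells that use the promoter of a type I collagen gene. Fluorescent collagen had been injected into the tumors before cells were taken. Total tumor was whole tumor, LLC was the dTomato-positive cells, and Fibroblast was the GFP-positive cells. TAM, tumor-associated macrophages, were cells with F4/80 and with the injected collagen, and without dTomato or GFP, so macrophages that had not taken up collagen were outside that gate. The labels used here give neither the age, sex and strain of the hosts nor whether paired libraries stem from different animals, so each p-value speaks for the spread between libraries, which may be technical.

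Cholesterol is built from acetyl-CoA through mevalonate, isoprenoid diphosphates, squalene and lanosterol. Fatty acids are built from the same acetyl-CoA by carboxylation to malonyl-CoA, repeated condensation on fatty acid synthase, elongation and desaturation. Both pathways are driven by the SREBP transcription factors, which stay in the endoplasmic reticulum with SCAP and INSIG proteins when sterols are plentiful and are cut free and move to the nucleus when sterols are scarce. Dividing cells need new membrane, and many tumor cells make fatty acids themselves. Macrophages that take up cells and lipoproteins receive cholesterol from outside and export it through ABC transporters under the control of LXR, a sterol-sensing nuclear receptor.

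The depth estimated from the smallest RPKM steps lay between 4.28 and 10.37 M reads, and replicate 1 was the deeper library in every group. Macrophage and fibroblast genes were highest in the populations sorted for them. The summed RPKM of 8 macrophage genes was 13598 and 9907 in TAM, 60.0 and 317 in LLC, and 145 and 167 in Fibroblast. The summed RPKM of 5 endothelial genes was 52.7 and 51.0 in Fibroblast, and 33.9 and 27.2 in Total tumor. It was 13.5 and 26.6 in TAM and 1.3 and 4.4 in LLC, and the source of the Fibroblast values was not tested. The summed RPKM of 8 fibroblast genes was 23926 and 22379 in Fibroblast, 132 and 641 in TAM, and 3727 and 4965 in LLC, so transcripts of these genes were also present in the LLC libraries, and whether they came from fibroblasts or from LLC cells was not tested. Of 8 genes of adipocytes, cells rich in fatty acid enzymes, Lep was at 0 in all 8 libraries. Their summed RPKM lay between 12.1 and 56.6 and was highest in TAM. Most of the TAM sum came from Pnpla2 (42.3 and 31.8 RPKM) and Lipe (13.5 and 13.2), while Adipoq was at most 0.908 in any library. The summed RPKM of 10 proliferation genes was 449 and 319 in LLC, 80.3 and 51.9 in Fibroblast, and 137 and 140 in TAM. Total tumor 2 read short transcripts high and long transcripts low (Spearman correlation of length with the deviation from the gene mean -0.438, across genes). The comparisons share libraries and a single estimate of the spread, so they are not independent of each other. In bulk samples such as these, fewer cells of a type and less RNA per cell cannot be told apart.

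LLC cells carried the highest levels of most of the genes. On the mean of log2(RPKM + 1), LLC was the highest of the 3 sorted populations for 23 of the 29 tested members (79.3%, against 52.1% of all 13311 genes tested), and TAM the lowest for 16 (55.2% against 36.9%). Summed over the 31 members, the RPKM came to 731 and 734 in LLC, 367 and 360 in Fibroblast, and 309 and 360 in TAM. Total tumor reached 672 and 751. The LLC and Total tumor sums thus lay above those of both stromal populations without overlap, and the Fibroblast and TAM sums met at 360. Shares were taken of the RPKM summed in each library over all symbols, with 1 transcript per symbol. The members made up 0.109 and 0.112% in Fibroblast, 0.0689 and 0.0901% in TAM, 0.208 and 0.229% in LLC, and 0.209 and 0.156% in Total tumor. By share, Fibroblast and TAM did not overlap.

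**Figure D1:**
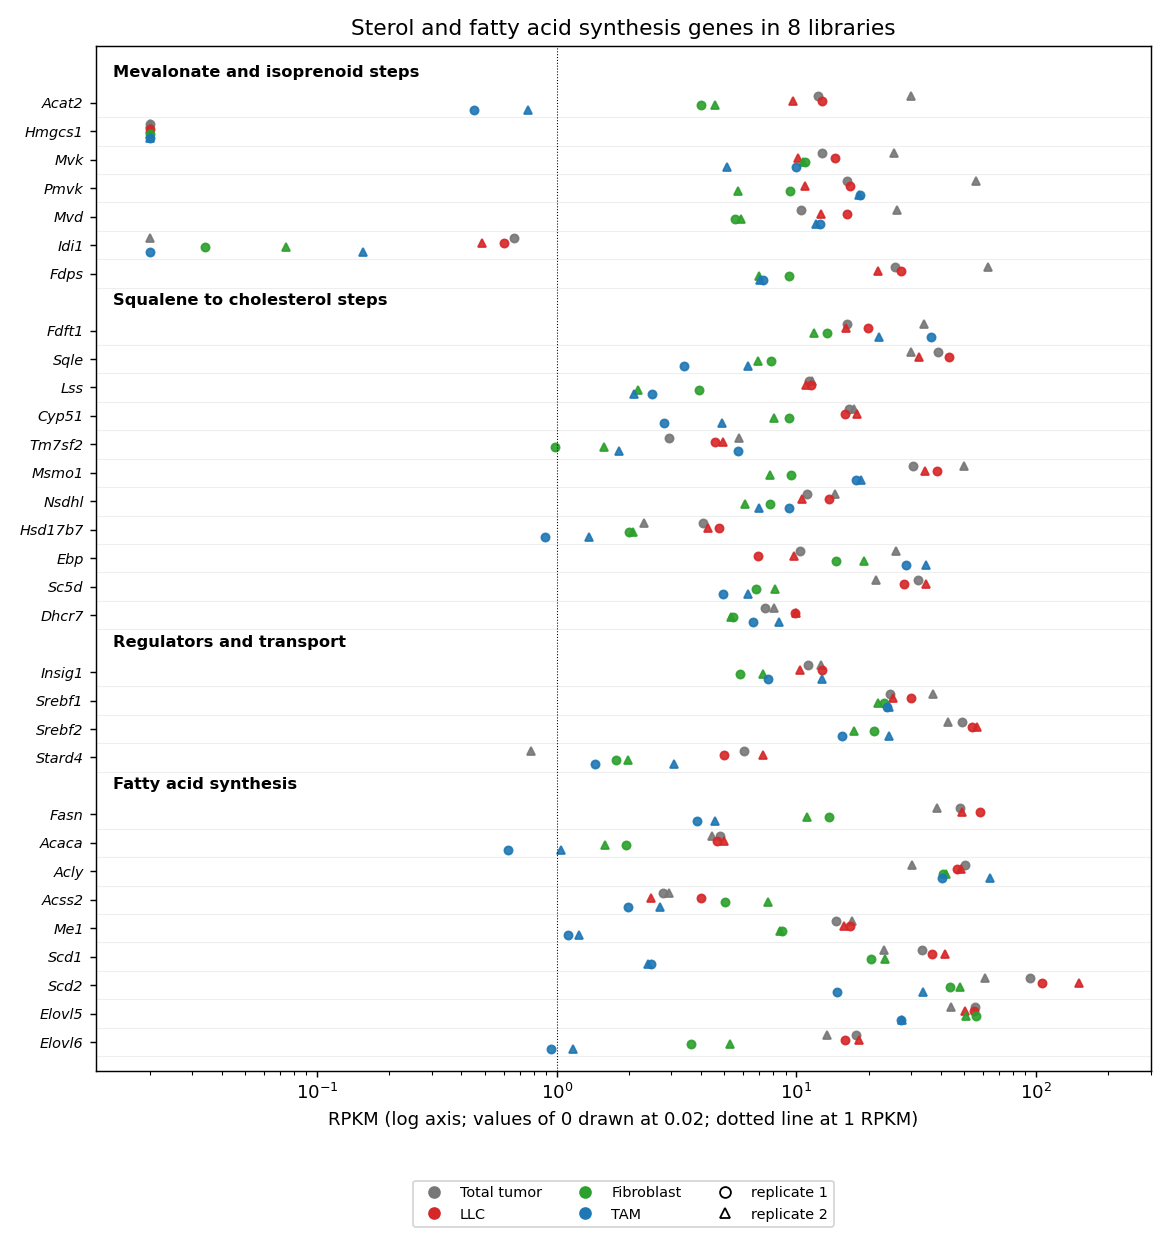
RPKM of the 31 members in each library, on a logarithmic axis, by role. Colors are the 4 groups, circles and triangles the replicate numbers, values of 0 are drawn at 0.02, and the dotted line marks 1 RPKM. LLC points lie to the right of the TAM points for Fasn, Scd1, Me1, Elovl6 and Sqle, while Ebp lies the other way and Srebf1 and Acly stay close together.

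The question of TAM against LLC is how the collagen-filled macrophages differ from the carcinoma cells beside them. In TAM, 16 of the 29 tested members were lower (limma, Benjamini-Hochberg adjusted over all genes tested) and 1 was higher. Of all genes, 27.5% were lower and 15.4% higher in this comparison. The median log2 difference of the members, on log2(RPKM + 1), was -1.16, and that of all genes was -0.38. By role, 7 of 9 fatty acid synthesis genes were lower, 6 of 11 from squalene to cholesterol with 1 higher, 2 of 5 mevalonate and isoprenoid genes, and 1 of 4 regulators. Of the 16, 12 stayed called under every alternative tried. Elovl5 and Msmo1 lost their call when any single LLC or TAM library was left out, Fdps without LLC 1, TAM 1 or TAM 2, and Hsd17b7 without LLC 1 or TAM 1. Quantile normalization changed the all-gene split from 2048 higher and 3659 lower to 2379 and 2757, and left the members at 1 higher and 16 lower.

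For 25 of the members a RefSeq promoter (GRCm38.p6) was available, read here as the 250 bases before each annotated start. Dhcr7, Me1, Pmvk and Srebf1 have several such windows. A gene, member or not, was counted for a motif if any of its windows held it. Fdft1, Fdps, Scd1, Scd2, Sqle and Stard4 were missing from the promoter sequences used, so nothing is said of their promoters. CCAAT, the letters recognized by the factor NF-Y, which is known to act beside SREBP at sterol genes, was present on either strand in 21 of the 25, against 37.5% of all genes with such a window. Among tested genes it was in 19 of 23 members and in 40.3% of genes. The sterol response letters TCACNCCAC, on either strand, were found in Hmgcs1 alone of the 25, against 1.22% of genes. CACGTG, an E-box, was in 5 of the 25 (6.86% of genes) and GGGCGG, the core of an Sp1 site, in 20 (35.4% of genes). Among tested genes GGGCGG was in 18 of 23 members and 63.3% of genes, CACGTG in 5 of 23 and 9.70%, and TCACNCCAC in 0 of 23 and 1.26%. No motif contains another, and a match describes letters only. Fasn and Msmo1, chosen after the values were seen because each window holds CCAAT 3 times and their expression patterns differ, are printed with each CCAAT, or ATTGG on the other strand, in capitals. The Fasn window is chr11:120824548-120824797 and the Msmo1 window chr8:64733579-64733828, both on the minus strand.
Fasn: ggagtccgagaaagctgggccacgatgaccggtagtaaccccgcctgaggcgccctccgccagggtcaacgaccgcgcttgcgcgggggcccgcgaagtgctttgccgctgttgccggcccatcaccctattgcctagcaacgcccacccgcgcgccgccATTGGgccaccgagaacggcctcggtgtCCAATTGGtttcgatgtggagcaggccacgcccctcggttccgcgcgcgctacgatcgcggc
Msmo1: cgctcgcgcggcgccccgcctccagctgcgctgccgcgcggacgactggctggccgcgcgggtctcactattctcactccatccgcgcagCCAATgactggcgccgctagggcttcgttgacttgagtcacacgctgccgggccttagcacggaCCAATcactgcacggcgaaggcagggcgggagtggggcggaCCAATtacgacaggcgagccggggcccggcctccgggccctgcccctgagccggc
In Fasn the matches begin 90, 62 and 59 bases before the start, the last pair overlapping in CCAATTGG. In Msmo1 they begin 160, 96 and 55 bases before it.

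Fatty acid synthesis had the lowest median TAM minus LLC difference of the role groups, -2.44 on the log2 scale. Fasn (NM_007988), fatty acid synthase, which builds palmitate, stood at 58.5 and 48.9 RPKM in LLC, 13.7 and 11.1 in Fibroblast, 3.85 and 4.57 in TAM, and 48.2 and 38.6 in Total tumor. The sorted groups form 3 separate steps with no overlap, and Total tumor sits near LLC. Mean Fasn RPKM was 12.7-fold higher in LLC than in TAM (log2 difference TAM minus LLC -3.39, SE 0.24, adjusted p = 0.000127). It was also lower in Fibroblast than in LLC (log2 -2.04, adjusted p = 0.000826) and lower in TAM than in Fibroblast (log2 -1.35, adjusted p = 0.00324). These 3 calls held under every alternative tried. Acaca (NM_133360), the acetyl-CoA carboxylase that supplies malonyl-CoA to Fasn, had 4.64 and 4.97 RPKM in LLC, 1.95 and 1.59 in Fibroblast, and 0.623 and 1.04 in TAM. LLC was again highest in both libraries and TAM lowest. The TAM minus LLC difference was -1.67 (SE 0.26, adjusted p = 0.0018) and that of Fibroblast minus LLC -1.07 (adjusted p = 0.0158), while TAM and Fibroblast did not pass (log2 -0.60, 95% interval -1.21 to 0.01, adjusted p = 0.121).

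The desaturases Scd1 and Scd2, which turn saturated into monounsaturated fatty acyl-CoA, were both lower in TAM than in LLC, but by different amounts. Scd1 (NM_009127) read 36.7 and 41.8 RPKM in LLC, 20.4 and 23.5 in Fibroblast, and 2.46 and 2.40 in TAM, with 33.4 and 23.2 in Total tumor. The TAM values stood far below all others, and Fibroblast lay between LLC and TAM, nearer to LLC. TAM lay 16.1-fold below LLC (log2 -3.55, SE 0.25, adjusted p = 0.000125) and 9.02-fold below Fibroblast (log2 -2.74, SE 0.25, adjusted p = 0.000167), and Fibroblast minus LLC was -0.81 (adjusted p = 0.0364). That last call was lost after either rescaling of the libraries (upper-quartile or quantile), with the replicate number as a block and without any single sorted library. Scd2 (NM_009128) was the most abundant member in LLC, at 106 and 152 RPKM, against 43.9 and 48.2 in Fibroblast and 14.8 and 33.8 in TAM. Its TAM libraries differed from each other more than those of Scd1. TAM minus LLC was -2.44 (SE 0.41, adjusted p = 0.00244), Fibroblast minus LLC was -1.44 (adjusted p = 0.0275), and TAM minus Fibroblast did not pass (log2 -1.0, 95% interval -1.96 to -0.05, adjusted p = 0.1). The mRNAs of Scd1 and Scd2 are related in sequence, and the handling of reads that match both is not given in the sources used.

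Elongation and supply of reducing power followed the same order for some enzymes. Elovl6 (NM_130450), which elongates palmitate to stearate, stood at 16.0 and 18.2 RPKM in LLC, 3.62 and 5.28 in Fibroblast, and 0.941 and 1.16 in TAM. LLC exceeded TAM 16.3-fold (log2 -3.14, SE 0.28, adjusted p = 0.000191), and Fibroblast fell between them without overlap. Fibroblast was below LLC (log2 -1.75, adjusted p = 0.00291) and above TAM (TAM minus Fibroblast log2 -1.39, adjusted p = 0.0061, not called without Fibroblast 2). Me1 (NM_008615), the cytosolic malic enzyme that makes NADPH for fatty acid synthesis, had 16.7 and 15.7 RPKM in LLC, 8.68 and 8.57 in Fibroblast, and 1.11 and 1.24 in TAM. TAM was 13.8-fold below LLC (log2 -2.98, SE 0.23, adjusted p = 0.000137) and 7.33-fold below Fibroblast (log2 -2.15, SE 0.23, adjusted p = 0.000304), and Fibroblast was below LLC (log2 -0.84, adjusted p = 0.0257). Elovl5 (NM_134255), which elongates polyunsaturated fatty acids, differed from this order, with 55.1 and 50.7 RPKM in LLC, 56.2 and 50.8 in Fibroblast, and 27.3 and 27.6 in TAM. LLC and Fibroblast overlapped, and TAM was the low group (TAM minus LLC log2 -0.92, adjusted p = 0.012, TAM minus Fibroblast log2 -0.94, adjusted p = 0.0121).

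Acly and Acss2, which make cytosolic acetyl-CoA, passed no test between TAM and LLC. Acly (NM_134037), which splits citrate into acetyl-CoA, read 46.9 and 48.5 RPKM in LLC, 40.7 and 42.1 in Fibroblast, and 40.4 and 64.1 in TAM. The TAM libraries span the values of both other populations, and TAM minus LLC was 0.09 (95% interval -0.65 to 0.83, adjusted p = 0.845). Acss2 (NM_019811), which makes acetyl-CoA from acetate, had 3.99 and 2.48 RPKM in LLC, 5.05 and 7.63 in Fibroblast, and 1.99 and 2.69 in TAM. Fibroblast was the highest group, TAM and LLC overlapped, and TAM was lower than Fibroblast (log2 -1.12, adjusted p = 0.0277), a call lost when any single library of these groups was left out. Exons of Acss2 overlap those of Gss, Acss2os and Ggt7 on the opposite strand by 395, 335 and 197 bases, and whether the counting used strand is not stated in the labels used. Acss2os read 0.921 and 3.37 RPKM in Fibroblast and at most 0.373 elsewhere, and Ggt7 read 4.11 and 3.89 in Fibroblast and at most 1.11 elsewhere. Their part in the Acss2 values was not tested.

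**Figure D2:**
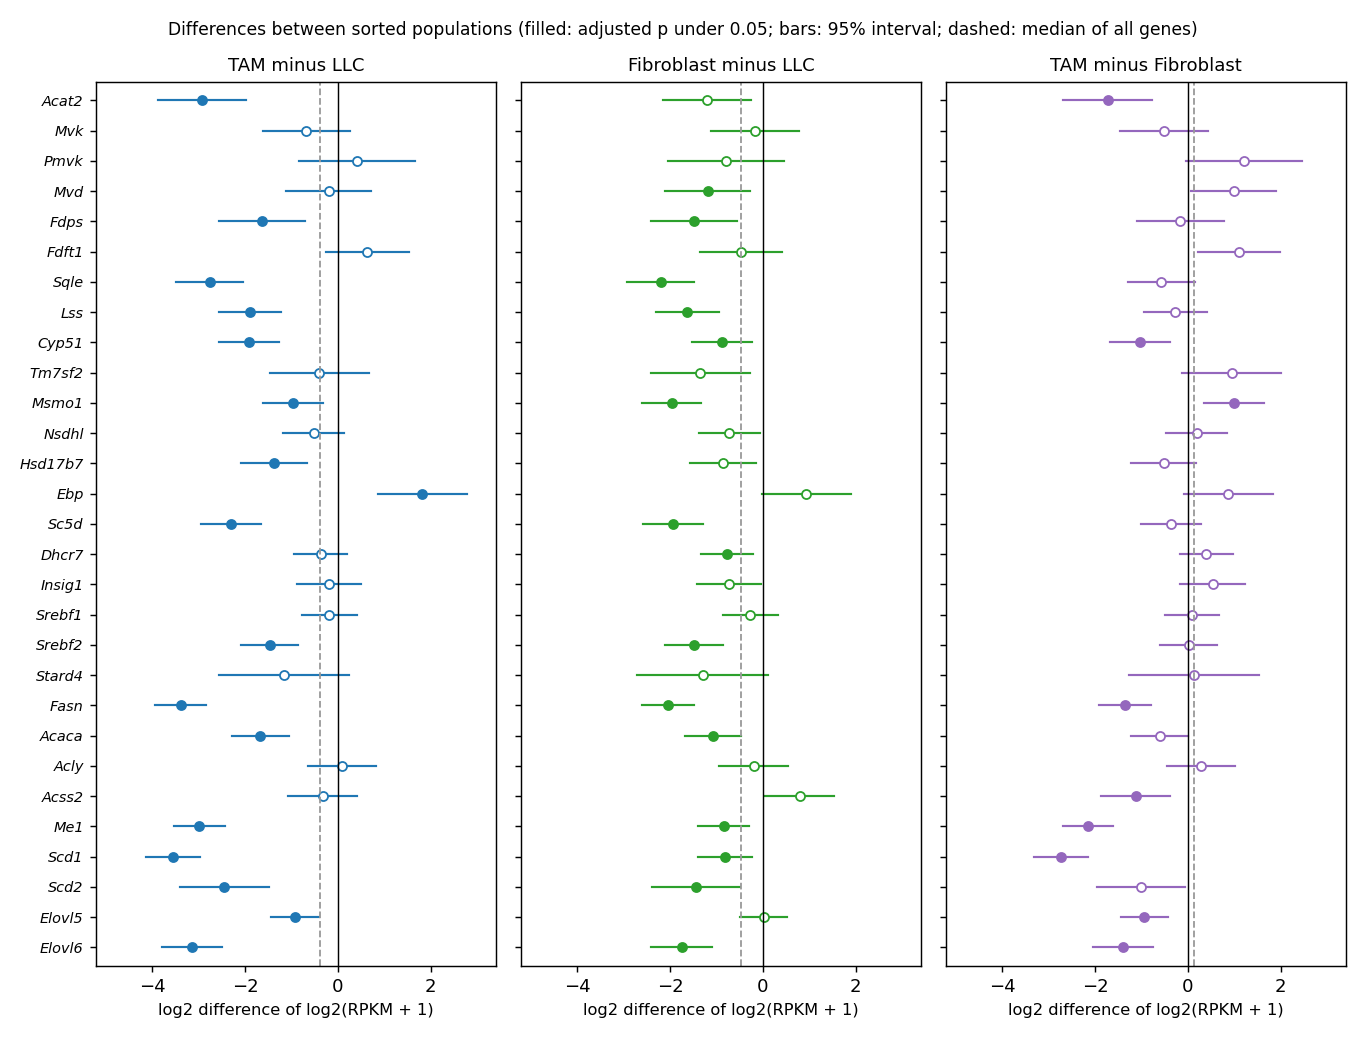
Log2 differences of the 29 tested members in the comparisons between sorted populations, with 95% intervals from limma. Filled points passed the adjusted threshold of 0.05 and the dashed line is the median of all genes tested (-0.38, -0.46 and 0.13). Most fatty acid genes, at the foot of the plot, lie far to the left in TAM minus LLC. In TAM minus Fibroblast the genes from squalene to cholesterol lie on both sides of 0 (5 below and 6 above).

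In the upper mevalonate pathway the difference fell on a few genes. Acat2 (NM_009338), the cytosolic thiolase that joins acetyl-CoA units, stood at 12.8 and 9.68 RPKM in LLC, 4.0 and 4.58 in Fibroblast, and 0.452 and 0.756 in TAM. The TAM values correspond to about 8.7 and 7.6 reads at the estimated depths, so the size of the gap is loosely set, but no TAM library came near the others. Mean RPKM was 18.6-fold higher in LLC than in TAM (log2 difference TAM minus LLC -2.93, SE 0.41, adjusted p = 0.00106), and TAM minus Fibroblast was -1.73 (SE 0.41, adjusted p = 0.013). The second of these was not called with a pseudocount of 5 or without Fibroblast 1, Fibroblast 2 or TAM 1. Fdps (NM_134469), farnesyl diphosphate synthase, had 27.3 and 21.9 RPKM in LLC, 9.34 and 7.0 in Fibroblast, and 7.28 and 7.05 in TAM. TAM and Fibroblast overlapped, and both were below LLC (log2 -1.64, adjusted p = 0.0131, and -1.48, adjusted p = 0.0226). Fdps shares 1124 exonic bases on the same strand with the annotated gene Gm43738. Mvd (NM_138656), the decarboxylase that yields isopentenyl diphosphate, stood at 16.2 and 12.6 RPKM in LLC, 5.54 and 5.89 in Fibroblast, and 12.6 and 12.1 in TAM. Here Fibroblast was the low group (Fibroblast minus LLC log2 -1.19, adjusted p = 0.0469), a call lost under 11 alternatives, among them a pseudocount of 5, no filter, either rescaling, the replicate block and any single sorted library left out. TAM lay close below LLC (log2 -0.20, 95% interval -1.12 to 0.72, adjusted p = 0.72). The kinases Mvk and Pmvk passed no test between sorted populations. Over the sorted libraries Mvk ran from 5.15 to 14.5 RPKM and Pmvk from 5.69 to 18.3, with TAM minus LLC differences of -0.68 (95% interval -1.62 to 0.27) and 0.41 (-0.83 to 1.66).

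Between squalene and cholesterol, Sqle showed the widest gap. Sqle (NM_009270), squalene epoxidase, a rate-limiting enzyme of the pathway, read 43.1 and 32.5 RPKM in LLC, 7.86 and 6.92 in Fibroblast, and 3.41 and 6.28 in TAM. Both stromal populations lay well below LLC, and TAM lay just below Fibroblast without overlap. LLC was 7.81-fold above TAM (log2 -2.76, SE 0.31, adjusted p = 0.000397) and 5.11-fold above Fibroblast (log2 -2.20, SE 0.31, adjusted p = 0.00167), and TAM minus Fibroblast did not pass (log2 -0.57, adjusted p = 0.21). Sc5d (NM_172769), a late desaturase that acts on lathosterol, followed Sqle, at 28.2 and 34.9 RPKM in LLC, 6.77 and 8.17 in Fibroblast, and 4.94 and 6.27 in TAM (TAM minus LLC log2 -2.30, adjusted p = 0.000546, Fibroblast minus LLC -1.94, adjusted p = 0.00181). Lss (NM_146006), which closes the rings to lanosterol, stood at 11.5 and 11.0 RPKM in LLC, 3.93 and 2.19 in Fibroblast, and 2.50 and 2.10 in TAM. It was lower in TAM (log2 -1.89, adjusted p = 0.00163) and in Fibroblast (log2 -1.62, adjusted p = 0.0045, not called without Fibroblast 2) than in LLC, and TAM overlapped Fibroblast.

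Cyp51 (NM_020010), the lanosterol demethylase, took 3 levels like Fasn, with 15.9 and 17.8 RPKM in LLC, 9.29 and 8.09 in Fibroblast, and 2.79 and 4.88 in TAM. TAM minus LLC was -1.92 (SE 0.28, adjusted p = 0.00124), Fibroblast minus LLC -0.88 (adjusted p = 0.0394) and TAM minus Fibroblast -1.03 (adjusted p = 0.0223). The last was not called without Fibroblast 1, Fibroblast 2 or TAM 1. Fibroblast minus LLC was not called with a pseudocount of 0.1, after either rescaling, with the replicate block, or without any single LLC or Fibroblast library. Cyp51, Elovl6, Fasn, Me1 and Scd1 were the 5 members called lower in Fibroblast than in LLC and lower again in TAM than in Fibroblast. The share of all genes with both calls was not computed. Of the 5 members only Fasn kept both steps under every alternative tried. The step from LLC to Fibroblast was lost after either rescaling for Cyp51, Me1 and Scd1 and with the replicate block for Cyp51 and Scd1. Hsd17b7 (NM_010476), a ketoreductase of sterol demethylation, had 4.73 and 4.28 RPKM in LLC, 2.00 and 2.08 in Fibroblast, and 0.894 and 1.37 in TAM. Its groups did not overlap, and TAM minus LLC was -1.38 (adjusted p = 0.00832) while Fibroblast minus LLC missed the threshold (log2 -0.86, adjusted p = 0.0567).

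Several late sterol genes went their own way. Msmo1 (NM_025436), the monooxygenase that begins removal of the methyl groups of lanosterol products, stood at 38.6 and 34.3 RPKM in LLC, 9.46 and 7.76 in Fibroblast, and 17.6 and 18.7 in TAM. TAM lay between the other populations with no overlap, lower than LLC (log2 -0.97, SE 0.28, adjusted p = 0.0252) and higher than Fibroblast (log2 1.0, SE 0.28, adjusted p = 0.0254). Each of these calls was lost when any library of its own groups was left out, while Fibroblast minus LLC (log2 -1.97, adjusted p = 0.00165) held under every alternative tried. Ebp (NM_007898), the sterol isomerase that acts just before Sc5d, was the 1 member higher in TAM than in LLC, at 6.92 and 9.79 RPKM in LLC, 14.7 and 19.0 in Fibroblast, and 28.6 and 34.8 in TAM. The order of the sorted groups was the reverse of that of Fasn, with no overlap, and the TAM mean was 3.80-fold the LLC mean (log2 1.82, SE 0.41, adjusted p = 0.00966, not called without LLC 1 or TAM 2). Dhcr7 (NM_007856), the reductase that makes cholesterol, varied little, at 9.86 and 9.95 RPKM in LLC, 5.44 and 5.33 in Fibroblast, and 6.57 and 8.42 in TAM. Fibroblast was lower than LLC by the test (log2 -0.77, adjusted p = 0.0395, lost after either rescaling, with the replicate block and without any single sorted library), and TAM minus LLC was -0.37 (95% interval -0.94 to 0.20, adjusted p = 0.26).

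Of the other late genes, Nsdhl, Tm7sf2 and Fdft1 passed no test between sorted populations. Nsdhl, which works with Msmo1 in demethylation, ran from 6.10 to 13.7 RPKM over the sorted libraries. Tm7sf2, a sterol reductase, ran from 0.981 to 5.72 RPKM, with its 2 TAM libraries at 5.72 and 1.82, and shares 532 exonic bases on the same strand with Vps51. Fdft1 (NM_010191), squalene synthase, read 19.9 and 16.1 RPKM in LLC, 13.5 and 11.8 in Fibroblast, and 36.2 and 22.1 in TAM, which was the highest group without overlap (TAM minus LLC log2 0.64, 95% interval -0.25 to 1.53, adjusted p = 0.219). Its exons overlap 774 bases of Ctsb, a lysosomal protease gene on the opposite strand, which read 228 and 275 RPKM in LLC, 336 and 336 in Fibroblast, and 2236 and 1839 in TAM. The part of these reads in the Fdft1 values was not tested. Smaller stretches of Lss, Cyp51 and Srebf1, of 381, 166 and 109 exonic bases, also overlap a gene on the opposite strand.

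The regulators differed in level between the SREBP genes. Srebf2 (NM_033218), whose product mainly drives cholesterol synthesis, stood at 53.9 and 56.7 RPKM in LLC, 21.1 and 17.4 in Fibroblast, and 15.5 and 24.3 in TAM. LLC lay above both stromal populations, which overlapped. TAM minus LLC was -1.46 (SE 0.26, adjusted p = 0.00348) and Fibroblast minus LLC -1.48 (SE 0.26, adjusted p = 0.00446, not called without Fibroblast 2), and TAM minus Fibroblast was 0.02 (95% interval -0.60 to 0.63). Srebf1 (NM_011480), whose product mainly drives fatty acid synthesis, had 30.1 and 25.2 RPKM in LLC, 23.2 and 22.0 in Fibroblast, and 23.9 and 24.4 in TAM. The 6 values lay close together and no comparison passed (TAM minus LLC log2 -0.18, 95% interval -0.77 to 0.41, adjusted p = 0.604). The table holds 1 Srebf1 transcript, so its isoforms cannot be told apart. Insig1 (NM_153526), which holds SREBP in the endoplasmic reticulum, read 12.7 and 10.3 RPKM in LLC, 5.82 and 7.25 in Fibroblast, and 7.63 and 12.7 in TAM, with TAM overlapping LLC (TAM minus LLC log2 -0.19, adjusted p = 0.638). Stard4, which carries cholesterol between membranes, had 5.0 and 7.26 RPKM in LLC and 1.45 and 3.07 in TAM, without overlap. The difference did not pass (log2 -1.16, 95% interval -2.57 to 0.25, adjusted p = 0.163). The Total tumor libraries, at 6.03 and 0.781 RPKM, enter this test through the shared spread, and whether Stard4 passed depended on them.

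The genes of each pathway thus did not keep fixed proportions, which ratios within a library show without any scaling between libraries. The pairs were chosen after the values were seen, and no test was made. A length dependence of a library does not cancel where the paired transcripts differ in length. Length correlated with the deviation from the gene mean at 0.038 and 0.254 in LLC and 0.107 and 0.207 in Fibroblast (Spearman). In TAM the correlation was -0.203 and 0.008. Ebp is 1743 bases long and Sc5d 4787, Elovl5 2782 and Elovl6 5951, and Acly 4393 and Fasn 10050. The part of length in these ratios was not tested. Fasn over Acly was 1.25 and 1.01 in LLC, 0.335 and 0.263 in Fibroblast, and 0.0955 and 0.0714 in TAM. Ebp over Sc5d, enzymes of neighboring steps, was 0.246 and 0.281 in LLC, 2.17 and 2.33 in Fibroblast, and 5.79 and 5.56 in TAM. Elovl5 over Elovl6 was 3.44 and 2.78 in LLC, 15.5 and 9.63 in Fibroblast, and 29.0 and 23.7 in TAM. In each of these pairs the 3 populations form separate steps in the same order. Scd2 over Scd1 was 2.87 and 3.63 in LLC, 2.15 and 2.05 in Fibroblast, and 6.0 and 14.1 in TAM, so Scd2 was the more abundant desaturase everywhere and most so in TAM. Msmo1 over Sqle lay between 0.895 and 1.2 in LLC and Fibroblast and at 5.18 and 2.97 in TAM.

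**Figure D3:**
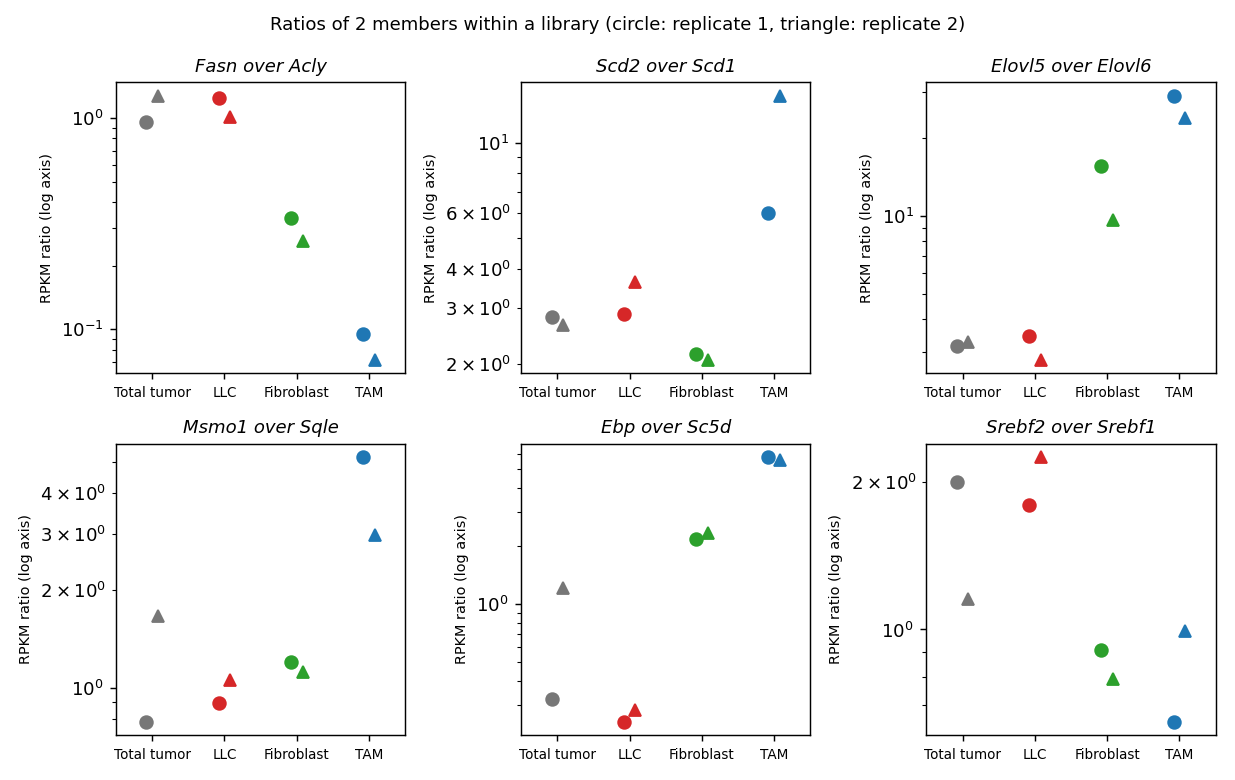
RPKM ratios of 6 pairs of members within each library, on logarithmic axes, by group (circles replicate 1, triangles replicate 2). Fasn over Acly steps down from LLC to Fibroblast to TAM (1.25 and 1.01 to 0.0955 and 0.0714), and Ebp over Sc5d and Elovl5 over Elovl6 step up in the same order.

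Fibroblasts were next set against LLC cells, the other stromal population beside the carcinoma. In Fibroblast, 15 of the 29 members were lower than in LLC and 0 higher (limma, adjusted; at an unadjusted p under 0.05 it was 20 lower and 1 higher). Of all genes, 25.7% were lower and 13.0% higher. The 15 held 6 of 11 genes from squalene to cholesterol, 6 of 9 fatty acid genes, 2 of 5 mevalonate genes and Srebf2. The median of the members was -0.88 and that of all genes -0.46. This comparison depended on the scaling of the libraries. After upper-quartile rescaling 2 members were higher (Acss2 and Ebp) and 7 lower (Elovl6, Fasn, Lss, Msmo1, Sc5d, Sqle and Srebf2), with all genes at 2219 higher and 1480 lower against 1726 and 3416 without it. Quantile normalization gave 2 and 9 members, and 2091 and 2313 genes. The count of lower members was 5 without Fibroblast 2, 7 without Fibroblast 1, LLC 1 or LLC 2, and 20 without either Total tumor library, which enters only through the shared spread. Elovl6, Fasn, Msmo1, Sc5d and Sqle were called lower under every alternative tried. Acaca, Fdps, Me1 and Scd2 were not called after upper-quartile rescaling or without any single LLC or Fibroblast library, and Me1 and Scd2 also not after quantile normalization.

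TAM were also set against Fibroblast. In TAM, 8 members were lower (17.3% of all genes were lower) and 1 higher (17.4% of all genes). Of the 8, 6 were fatty acid genes, out of 9 tested (Fasn, Me1, Scd1, Elovl5, Elovl6 and Acss2), with Acat2 and Cyp51 as the others. From squalene to cholesterol 1 of 11 was lower and 1, Msmo1, was higher, and of the 4 regulators 0 passed either adjusted or at an unadjusted p under 0.05. The median log2 difference was -1.12 for fatty acid synthesis and 0.20 for squalene to cholesterol, beside 0.13 for all genes, and the difference between these lists was not tested. Fasn, Me1 and Scd1 held under every alternative tried. The lower count was 3 without Fibroblast 2 and 4 without Fibroblast 1 or TAM 1, the higher count was 0 without Fibroblast 1, Fibroblast 2 or TAM 1, and the higher count was 5 without either Total tumor library or with a fit of only the groups compared (Msmo1 with Ebp, Fdft1, Mvd and Pmvk).

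Of the 29 members, 13 were lower than LLC in both stromal populations, comparisons that share the LLC libraries: Acaca, Cyp51, Elovl6, Fasn, Fdps, Lss, Me1, Msmo1, Sc5d, Scd1, Scd2, Sqle and Srebf2. The share of all genes lower in both was not computed, so this count has no background. Singly, 27.5% of all genes were lower in TAM and 25.7% in Fibroblast. Acat2, Elovl5 and Hsd17b7 were called lower in TAM only, and Dhcr7 and Mvd in Fibroblast only, without a test of that difference. Proliferation genes moved along with part of this pattern. In TAM 7 of 10 were lower than in LLC (27.5% of all genes), and in Fibroblast 9 of 10 (25.7% of all genes). Their sums were 137 and 140 RPKM in TAM and 80.3 and 51.9 in Fibroblast, against 449 and 319 in LLC. Their part in the member differences was not tested. Between TAM and Fibroblast 4 of the 10 proliferation genes were higher in TAM and 0 lower (0 also unadjusted), beside 17.4% and 17.3% of all genes.

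Genes around these pathways were read from further lists. Of all genes tested, 27.5% were lower and 15.4% higher in TAM than in LLC, with a median log2 difference of -0.38. In the isoprenoid branch, which makes ubiquinone and prenyl anchors, with the sterol reductase Lbr, 5 of 9 were lower in TAM than in LLC and 0 higher (0 also unadjusted), led by Fntb, a farnesyltransferase subunit, at 14.8 and 12.1 RPKM in LLC and 4.26 and 3.5 in TAM (log2 -1.56, adjusted p = 0.00614, not called without LLC 1). Lbr was lower in Fibroblast than in LLC, at 6.27 and 6.66 against 25.5 and 23.7 RPKM (log2 -1.78, adjusted p = 0.00526). Among 8 genes of SREBP control and LXR, 3 were lower (37.5%) and 1 higher (12.5%) in TAM than in LLC. Their median was -0.72, and no test set this list against all genes. Mbtps1, the protease that makes the first cut of SREBP, stood at 93.2 and 93.0 RPKM in LLC, 45.9 and 48.0 in Fibroblast, and 14.9 and 20.6 in TAM (TAM minus LLC log2 -2.34, adjusted p = 0.000248). Scap, the SREBP escort, stood at 34.4 and 27.1 in LLC, 19.0 and 19.3 in Fibroblast, and 10.0 and 8.51 in TAM (log2 -1.62, adjusted p = 0.00148). Both genes step down in the order seen for Fasn, without overlap. Nr1h3, which encodes LXR alpha, stepped up instead, at 3.49 and 2.73, 9.71 and 8.35, and 28.9 and 25.5 RPKM in the same order (TAM minus LLC log2 2.78, adjusted p = 0.000624).

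Genes of sterol movement and storage lay on the other side. In TAM, 9 of 14 were higher than in LLC and 0 lower (1 at an unadjusted p under 0.05), with a median log2 difference of 1.47. Of all genes, 15.4% were higher and 27.5% lower, with a median of -0.38. Abcg1, a cholesterol exporter, stood at 0.298 and 1.76 RPKM in LLC, 2.20 and 3.05 in Fibroblast, and 36.8 and 40.0 in TAM (TAM minus LLC log2 4.38, adjusted p = 0.000177). Abca1, the exporter that loads apolipoprotein A-I, had 0.536 and 2.46 RPKM in LLC, 17.1 and 27.0 in Fibroblast, and 32.3 and 50.2 in TAM (log2 4.16, adjusted p = 0.000487). Fibroblast thus resembled LLC for Abcg1 and lay nearer TAM for Abca1. Ch25h, which makes the oxysterol that restrains SREBP, stood at 0.569 and 1.21 RPKM in LLC and 29.5 and 24.5 in TAM (log2 3.91, adjusted p = 0.000422). Nceh1, a cholesteryl ester hydrolase, was lowest in Fibroblast, at 1.01 and 1.34 RPKM, against 14.6 and 18.1 in LLC and 28.3 and 27.5 in TAM (TAM minus Fibroblast log2 3.74, adjusted p = 0.000116). Macrophage marker genes were also higher in TAM, as the sums above show, and this list was not separated from them by any test.

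Other fatty acid genes did not follow the synthesis genes as a body. Of 17 tested genes of fatty acid modification and glycerolipid assembly, 3 were lower (17.6%) and 1 higher (5.88%) in TAM than in LLC, with a median of -0.03. Of all genes, 27.5% were lower and 15.4% higher, with a median of -0.38. Fads2, the desaturase of polyunsaturated fatty acids, read 17.8 and 19.3 RPKM in LLC, 21.8 and 29.1 in Fibroblast, and 0.234 and 2.69 in TAM (TAM minus LLC log2 -3.20, adjusted p = 0.00205). TAM was the low group, as for Elovl5. Acsl3, an acyl-CoA synthetase of lipid droplets, was low in both stromal populations, at 4.21 and 3.05 RPKM in Fibroblast and 2.04 and 2.84 in TAM against 17.5 and 17.3 in LLC (TAM minus LLC log2 -2.43, adjusted p = 0.0004). Of 11 genes of fatty acid oxidation, 0 passed in either direction between TAM and LLC (limma; 1 lower and 0 higher at an unadjusted p under 0.05). Their median was 0.08, beside the same all-gene shares and median.

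**Figure D4:**
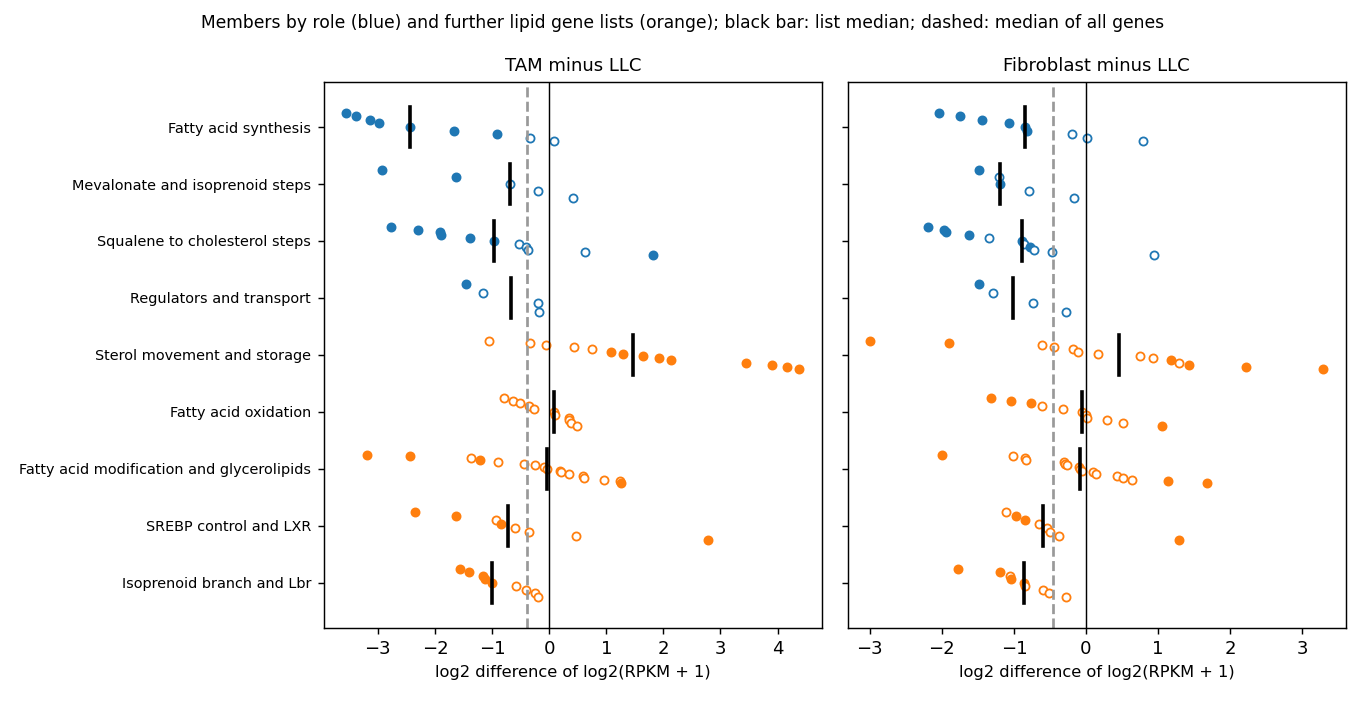
Log2 differences of each tested gene by list, in TAM minus LLC and Fibroblast minus LLC. Blue points are members by role, orange points the further lists, filled points passed the adjusted threshold, black bars are list medians and the dashed line the median of all genes. Fatty acid synthesis has the lowest median in TAM minus LLC (-2.44) and sterol movement and storage the highest (1.47).

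Whole tumor was compared last, to see where the mixture lies. Against Total tumor, 0 of 29 members passed in LLC in either direction (limma; 0 also at an unadjusted p under 0.05), where 2.30% of all genes were lower and 0.0526% higher. Without Total tumor 1, 4 members were lower (Acat2, Ebp, Fdps and Pmvk) and 1 higher (Stard4). The Total tumor libraries differed from each other on these members: Acat2 at 12.3 and 30.0 RPKM, Fdps at 25.8 and 63.1, Pmvk at 16.2 and 55.9, Ebp at 10.4 and 26.1, and Stard4 at 6.03 and 0.781. The transcripts that were high in Total tumor 2 are between 1194 and 2250 bases long and that of Stard4 is 5097, in the direction of the length dependence of that library, whose part in these values was not tested. In TAM, 16 members were lower than in Total tumor and 0 higher (17 and 0 unadjusted), against 23.9% and 11.3% of all genes. In Fibroblast, 14 were lower and 0 higher (17 and 1 unadjusted), against 30.0% and 12.1%. Fasn was lower than Total tumor in both (log2 -3.09, adjusted p = 0.000413, and -1.73, adjusted p = 0.00173). Upper-quartile rescaling changed the member counts to 1 higher and 14 lower in TAM and to 1 higher and 8 lower in Fibroblast, and the all-gene splits from 1509 and 3181 to 1928 and 2252 and from 1613 and 3988 to 2243 and 1760. The Total tumor mean lay inside the range of the sorted means for 17 of the 29 (58.6%, against 67.9% of all genes). It lay above that range for 11 (37.9% against 25.5%), of which 5 were mevalonate genes. It lay below for Acly alone (3.45% against 6.57%). The summed RPKM of the mevalonate and isoprenoid genes was 78.2 in Total tumor 1 and 201 in Total tumor 2. In LLC this sum was 88.1 and 65.7, so only Total tumor 2 lay above both LLC libraries.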

How the data were processed

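The 8 libraries were sequenced by the authors from poly(A)-primed cDNA, per the labels' protocols, and STAR, HOMER and the mouse build mm9 are named, without versions, per the submitters' processing notes. The deposited table holds RPKM values that the authors computed for 31645 RefSeq transcripts. For the read total behind them, the filters and the use of strand, no statement is given in the sources used here. The 3 unnamed transcripts were dropped, and 1 transcript per symbol was kept by highest mean (23952 symbols, 4341 with several).

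Genes at 1 RPKM or more in at least 2 libraries (13311) were tested on log2(RPKM + 1), unscaled, with limma 3.58.1 in R 4.3.3. A single fit with a mean-variance trend covered the 4 groups and 6 comparisons (residual degrees of freedom 4, prior 3.62), and Benjamini-Hochberg adjusted p-values under 0.05 were called. Log2 differences on this scale understate the change of low genes. Folds are ratios of mean RPKM. The procedure was checked on simulated data, where many added differences were not called. Far fewer genes were changed there than were called here, so that recovery does not measure the recovery of these tests. A gene that did not pass may still differ.

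Depth was estimated as the number of reads at which RPKM values, from 0.04 up to 6 reads, fall within 0.05 of a whole read. Between 63.0 and 66.4% did, too few to recover counts, so no count test was run. The estimates were 9.93 and 4.70 M reads in Total tumor, 10.34 and 4.28 in LLC, 10.37 and 4.71 in Fibroblast, and 8.51 and 4.46 in TAM, and precision rests on 2 libraries a group.

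Lengths and exon overlaps came from GENCODE M21, a later build than mm9, matched for 97.4% of transcripts. Values in every library are given for members called between sorted populations and for the main regulators and fatty acid enzymes, and up to 3 called genes a direction are named from each further list. Members and lists were chosen with earlier results of these data known, so they are no independent evidence. Alternatives covered the pseudocount, filter, scaling, variance trend, groups in the fit, replicate number, transcript choice, length trend and each library left out.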

Additional observations from a re-analysis of the deposited data

How the results depend on the processing

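Of the 71 calls of a member in a comparison, 51 stayed called under every alternative that kept all libraries and 38 under every alternative run. Of 1343 alternative values, 1181 stayed on the same side of the threshold, 162 lost their call and 0 changed sign. Fewer libraries enter the fits that leave 1 out, and the cause of the other shifts was not tested. With 2 libraries a group and 4.28 to 10.37 M reads, members near 1 RPKM, such as Acat2 in TAM, rest on few reads.

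Fibroblast minus LLC had 2 members higher after upper-quartile rescaling and after quantile normalization, 1 with only the groups compared and 1 with the length trend removed. Lower members were 7 and 9 under those rescalings. Fibroblast minus Total tumor had 1 member higher with a pseudocount of 5, a filter at 5 RPKM, either rescaling, no variance trend or the length trend removed, and 8 lower after upper-quartile rescaling and 9 after quantile normalization or with only the groups compared. TAM minus Fibroblast had 5 members higher with only the groups compared and 2 with the length trend removed, and TAM minus Total tumor 1 higher after upper-quartile rescaling or with the length trend removed.

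Leaving out 1 library gave 0 to 1 members higher and 12 to 17 lower in TAM minus LLC, 0 to 5 and 3 to 8 in TAM minus Fibroblast, 0 to 1 and 5 to 20 in Fibroblast minus LLC, 0 to 1 and 11 to 19 in TAM minus Total tumor, 0 to 1 and 0 to 4 in LLC minus Total tumor, and 0 to 0 and 7 to 19 in Fibroblast minus Total tumor. In the same order the member median ran from -1.52 to -1.05, -0.34 to 0.03, -1.12 to -0.88, -1.41 to -0.89, -0.04 to 0.09 and -0.98 to -0.80. Total tumor lay inside the sorted range for 13 to 21 members.

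The member median moved by more than its spread between libraries (SD 0.057) as follows. In TAM minus LLC it was -1.47 and -0.75 with pseudocounts of 0.1 and 5, -1.06 with no filter, -0.97 with a filter at 5 RPKM, -0.99 after upper-quartile rescaling, -0.89 after quantile normalization and -1.03 with the length trend removed. In TAM minus Fibroblast it was -0.34 and -0.13 with the pseudocounts, -0.21 with no filter, -0.16 with a filter at 5 RPKM, -0.50 after upper-quartile rescaling and -0.16 with the length trend removed. In Fibroblast minus LLC it was -1.11 and -0.64 with the pseudocounts, -0.49 after upper-quartile rescaling and -0.74 after quantile normalization. In TAM minus Total tumor it was -1.24 and -0.75 with the pseudocounts, -1.01 with no filter, -0.76 and -0.74 after the rescalings and -1.01 with the length trend removed. In Fibroblast minus Total tumor it was -0.61 with a pseudocount of 5, -0.27 and -0.34 after the rescalings and -0.96 with the length trend removed. In LLC minus Total tumor it was 0.14 and 0.13 after the rescalings and -0.03 with the length trend removed.

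With all libraries kept, counts over all genes that moved by over 1.5 times were, for lower genes, 1480 (upper-quartile) and 5230 (only the groups compared) against 3416 in Fibroblast minus LLC, 1760 (upper-quartile), 2428 (quantile) and 2003 (only the groups compared) against 3988 in Fibroblast minus Total tumor, and 2055 (quantile) and 1276 (only the groups compared) against 3181 in TAM minus Total tumor. In LLC minus Total tumor 306 lower became 176 with a pseudocount of 5, 10 with no filter, 197 after upper-quartile rescaling and 0 with only the groups compared, and 7 higher became 4 with a pseudocount of 5, 2 with no filter or a filter at 5 RPKM, and 0 with only the groups compared. TAM minus Total tumor had 629 higher with only the groups compared against 1509. Leaving out 1 library gave 741 to 2050 genes higher and 935 to 5102 lower in Fibroblast minus LLC, 635 to 2095 and 1222 to 5108 in Fibroblast minus Total tumor, 0 to 971 and 0 to 1532 in LLC minus Total tumor, 1324 to 3338 and 1234 to 2784 in TAM minus Fibroblast, 1429 to 2509 and 1959 to 4848 in TAM minus LLC, and 697 to 1880 and 1599 to 4136 in TAM minus Total tumor.

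Same-numbered libraries did not deviate together in every pair of groups: the correlation of their deviations was 0.206 between LLC and Fibroblast, 0.274 between LLC and TAM and 0.162 between Fibroblast and TAM, but -0.232, -0.179 and -0.361 between Total tumor and these, so the replicate numbers were not taken to pair the samples. With a replicate block, members higher and lower were 1 and 16 in TAM minus LLC, 1 and 8 in TAM minus Fibroblast, 0 and 11 in Fibroblast minus LLC (without Cyp51, Dhcr7, Mvd and Scd1), 0 and 15 in TAM minus Total tumor, 0 and 0 in LLC minus Total tumor, and 0 and 12 in Fibroblast minus Total tumor.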
